A study of Mus musculus with 6 samples.

Results

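The genes of the mitochondrial ribosome were followed in mouse dendritic cells cultured with or without DB2313. The set held every protein-coding gene of the count table whose symbol began with Mrpl or Mrps and a number. These were 78 of the 54532 genes in the table, and 77 of them had enough reads to be tested. RNA sequencing had been done on 3 control libraries and 3 DB2313 libraries. DB2313 is a small-molecule inhibitor of PU.1, the transcription factor encoded by Spi1 that directs gene expression in myeloid cells. The labels described the control cells only as untreated dendritic cells and the other group as the same cells given DB2313, in culture medium with fetal bovine serum. The study's own text speaks of macrophages. Strain, genotype, age, dose and time of treatment did not appear in the labels, nor did any statement that the libraries came from separate cultures or animals, so the p-values measure only the spread between these libraries.

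The mitochondrial ribosome translates the few messenger RNAs transcribed from the mitochondrial genome, all of which encode subunits of the respiratory chain and the ATP synthase. Its 2 ribosomal RNAs are transcribed in the mitochondrion, whereas its proteins are encoded in the nucleus, made in the cytosol and imported. Some of these proteins have counterparts in bacterial ribosomes, and others are found only in mitochondria. By their place in the ribosome, 26 of the 78 genes encoded proteins of the small subunit (16 with a bacterial counterpart and 10 specific to mitochondria) and 51 encoded proteins of the large subunit (30 and 21). Mrps18a and Mrps30 were counted with the large subunit, where their proteins lie despite their names. The product of the remaining gene, Mrps36, is a component of the 2-oxoglutarate dehydrogenase complex and not of the ribosome, although its symbol placed it in the set.

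Total counts were 16146743 to 19764677 per library. Each pair of replicates differed by more than sampling noise, with a chi-square per degree of freedom of 4.77 to 5.28 among the control libraries and 7.43 to 17.7 among the DB2313 libraries, and DB2313 replicates 1 and 3 lay farthest apart. The columns of the table bore the names BMDC and SPI1 rather than the treatment, and every direction given here rests on reading BMDC as control and SPI1 as DB2313. The table held markers of dendritic cells (11 of 14 genes above 10 CPM in control) as well as of macrophages (12 of 12), neutrophils (10 of 10) and mast cells or basophils (8 of 10), so that the libraries did not show dendritic cell genes alone. The summed level of the dendritic cell markers was 12000 to 12300 CPM in control and 10300 to 12100 CPM with DB2313, that of the macrophage markers 10200 to 11600 and 9120 to 10000 CPM, and that of the neutrophil markers 4410 to 4970 and 4480 to 5890 CPM. The mast cell and basophil markers summed to 2520 to 2720 and 2560 to 3070 CPM, the T cell markers (6 of 9 above 10 CPM) to 175 to 208 and 181 to 262 CPM, and the B cell markers (0 of 6) to 3.44 to 4.48 and 5.34 to 6.67 CPM. No marker was at 0 in all libraries. The part of these shifts in the results below was not tested, and in bulk RNA fewer cells of a type and less RNA per cell cannot be told apart.

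The 78 genes were spread over 17 chromosomes, with 11 on chromosome 11 and 0 on the sex chromosomes. They encode small proteins, from 65 to 442 residues with a median of 194. Many shared a starting region with a neighbour. For 19 of the 78 genes (24.4%), another protein-coding gene began on the opposite strand within 1000 bp without overlap, compared with 10.4% of the 12373 protein-coding genes tested. Mrpl43 began 116 bp from Twnk, which encodes the mitochondrial DNA helicase, and Mrps12 began 172 bp from Sars2, which encodes the mitochondrial seryl-tRNA synthetase.

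Promoter sequences were available from RefSeq (GRCm38.p6) for 69 of the 78 genes, as windows of 250 bases before and 50 bases after the start. They were searched on both strands for CCGGAAGT, a strong binding sequence of the ETS family that includes GABP, a known activator of mitochondrial genes. The search also covered GAGGAAGT, the purine-rich sequence preferred by PU.1, the palindromic consensus of NRF1, and AAGATGGC, which is bound by YY1. The 100 bases before the start are shown for Mrpl22 and Mrpl2, the genes called higher with DB2313 by edgeR. Both calls, described below, were lost in some alternative fits. Mrpl43 and Mrps22 are also shown, since they held the ETS sequence close to the start. Per kilobase of deposited gene length, Mrpl43 lay near the top of the range of expression and Mrps22 near the bottom. Capitals mark CCGGAAGT.
Mrpl22, chr11:58171564-58171663, plus strand: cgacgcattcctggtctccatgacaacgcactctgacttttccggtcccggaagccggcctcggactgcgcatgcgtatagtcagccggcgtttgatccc
Mrpl2, chr17:46646121-46646220, plus strand: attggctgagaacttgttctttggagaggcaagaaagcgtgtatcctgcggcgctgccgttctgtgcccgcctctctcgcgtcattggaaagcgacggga
Mrpl43, chr19:45006443-45006542, minus strand: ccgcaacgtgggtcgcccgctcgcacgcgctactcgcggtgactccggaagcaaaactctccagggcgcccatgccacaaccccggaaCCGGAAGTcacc
Mrps22, chr9:98601680-98601779, minus strand: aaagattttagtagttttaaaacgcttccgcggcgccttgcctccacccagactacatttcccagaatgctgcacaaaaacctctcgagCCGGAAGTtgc
The sequence began 12 bases before the start of Mrpl43 and 11 bases before that of Mrps22. The windows of Mrpl22 and Mrpl2 held none of the 4 sequences, which says only that these letters were not there. RefSeq listed 3 starts for Mrpl2, and the first is shown. A gene was counted once, if the window of any of its listed starts held the sequence. Across the set, CCGGAAGT was found in 12 of 69 genes (17.4%). The share was 4.31% of all 27025 genes with a promoter and 9.03% of the tested genes among them. AAGATGGC was found in 12 (17.4%), against 3.19% and 5.21%, and the NRF1 consensus in 6 (8.7%), against 2.56% and 5.58%. GAGGAAGT was found in 1 gene, Mrps10 (1.45%), against 3.69% and 4.16%. CCGGAAGT and GAGGAAGT share the letters GGAAGT, although no stretch can match both. The median log2 fold change with DB2313 was 0.11 for the 12 genes with CCGGAAGT and 0.07 for the 56 tested genes without it, 0.06 for the 12 genes with AAGATGGC and 0.09 for the 56 without, and 0.05 for the 6 genes with the NRF1 consensus and 0.10 for the 62 without. The median GC content of the windows was 58.7% in the set and 52.7% over all genes with a promoter. Its part in the shares was not tested, and no test was made of these shares or medians.

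Within control cells, the genes of the ribosome were expressed over a wide range. Levels were compared as RPKM, that is counts divided by the deposited gene length in kilobases and by the scaled library size. The median control level was 10.95 RPKM, with an interquartile range of 5.71 to 24.5, whereas the median of the 83 cytosolic ribosomal protein genes was 303 RPKM. The highest levels belonged to Mrps21 (62.7 ± 4.91 RPKM, SD, n = 3), Mrpl34 (57.2 ± 5.35), Mrpl43 (46.2 ± 2.13), Mrpl14 (40.7 ± 1.67) and Mrpl54 (39.4 ± 0.67). Mrps21, Mrpl34 and Mrpl14 are counterparts of bacterial proteins, and Mrpl43 and Mrpl54 are specific to mitochondria. The lowest tested levels belonged to Mrpl47 (1.86 ± 0.28 RPKM), Mrps10 (2.49 ± 0.30), Mrps22 (2.52 ± 0.10), Mrps31 (3.03 ± 0.35) and Mrps30 (3.31 ± 0.04). The ranges of mean ± SD overlapped for Mrps21 and Mrpl34, for Mrpl14 and Mrpl54, for Mrps10 and Mrps22, for Mrps10 and Mrps31, and for Mrps31 and Mrps30. The highest level was 33.7 times the lowest, although most of these proteins occur at the same number of copies in a ribosome. This range and the order of the genes rest on the deposited gene length. Not divided by length, control levels ran from 8.23 CPM (Mrpl47) to 69.8 CPM (Mrpl4). Across the tested genes, the SD of the log2 control level was 1.21 for RPKM and 0.707 for CPM.

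**Figure D1:**
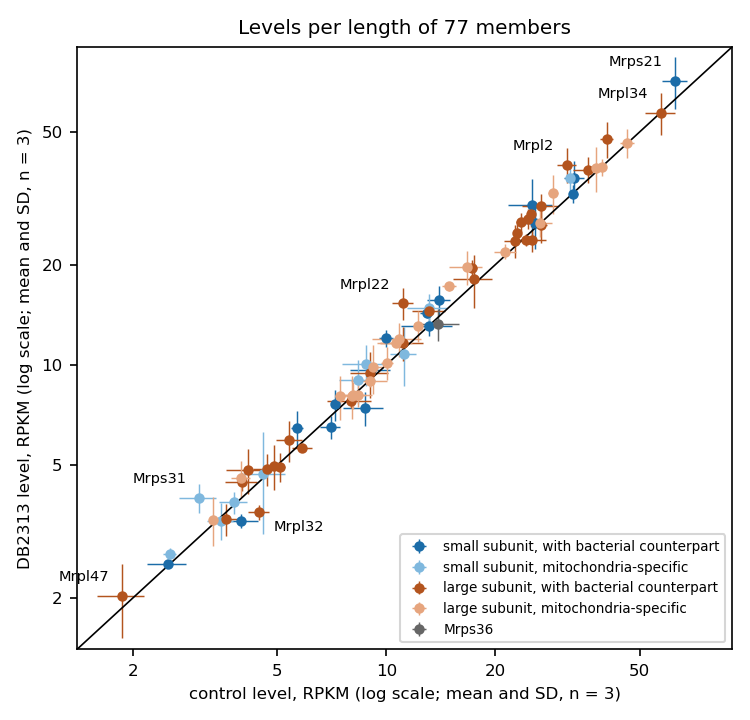
Control level (x axis) and DB2313 level (y axis) of the 77 tested genes in RPKM, both on log scales, with bars for the SD of 3 libraries, colours for the class of the protein and a line of equality. The points follow the line from Mrpl47 at 1.86 RPKM to Mrps21 at 62.7 RPKM in control, with Mrpl22, Mrpl2 and Mrps31 above it and Mrpl32 below it.

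With DB2313 these genes stood at similar levels, with some changes of place. In the plot of levels in both groups, Mrps21 stood at 71.3 ± 12.7 RPKM with DB2313, Mrpl34 at 57.2 ± 8.10, Mrpl43 at 46.4 ± 4.55, Mrpl14 at 47.8 ± 5.99 and Mrpl54 at 39.2 ± 2.25. Among the genes lowest in control, Mrpl47 stood at 2.02 ± 0.50 RPKM, Mrps10 at 2.53 ± 0.04, Mrps22 at 2.71 ± 0.11, Mrps31 at 3.98 ± 0.39 and Mrps30 at 3.42 ± 0.57. By mean level, Mrpl14 passed Mrpl43, Mrpl2 (39.9 ± 4.76 RPKM) passed Mrpl54 into the highest 5, and Mrps5 (3.40 ± 0.16) and Mrps35 (3.41 ± 0.43) took the places of Mrps31 and Mrps30 among the lowest 5. Pearson's r between the log2 levels of the groups was 0.99 across the 77 genes, a value across genes, which share libraries and lengths and are not independent. The levels depend on the gene length used. For 73 of the 78 genes the deposited length equalled the total of all exons annotated in GENCODE M21. For Mrpl43 it was 1213 bp, shorter than the principal transcript of 1398 bp. Levels were also taken per length of the principal transcript, a choice made after the data were seen. The highest control level was then 41.1 times the lowest, with Mrpl52 first (100.6 RPKM) and Mrpl47 still last of the tested genes (2.45). Mrps10 moved from the lowest 5 to 38th (19.7 RPKM), Mrpl33 from 66th to 3rd (63.45) and Mrpl43 to 16th (40.1). Mrps22 stood 63rd (8.40). Spearman's rho between both orders was 0.76.

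To ask whether DB2313 changed the output of these genes as a whole, their counts were summed in each library. The summed level was 2390, 2340 and 2530 CPM (counts scaled to a common library size) in control replicates 1 to 3, and 2761, 2595 and 2331 CPM in DB2313 replicates 1 to 3. DB2313 replicates 1 and 2 lay above all control libraries, and DB2313 replicate 3 lay below them, so the groups overlapped. The means were 2420 ± 98.4 CPM and 2562 ± 217 CPM (SD, n = 3 each), a log2 difference of 0.08 ± 0.08 (SE), with p = 0.4 in an exact two-sided permutation test. This test cannot give a p below 0.1 for 3 against 3 libraries. The genes took 0.231% to 0.274% of all counts over the 6 libraries.

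The balance of the subunits was followed as the ratio of small-subunit to large-subunit counts. It was 0.445, 0.440 and 0.449 in the control libraries and 0.456, 0.443 and 0.444 in the DB2313 libraries. The groups overlapped, and the log2 difference of 0.01 ± 0.02 (SE) had an exact permutation p of 0.7. The ratio of mitochondrial to cytosolic ribosomal protein counts was 0.0452, 0.0439 and 0.0442 in control and 0.0407, 0.0418 and 0.0443 with DB2313. It was lower than in any control library in DB2313 replicates 1 and 2 but not in replicate 3, with a log2 difference of -0.07 ± 0.04 (SE) and an exact permutation p of 0.3.

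**Figure D2:**
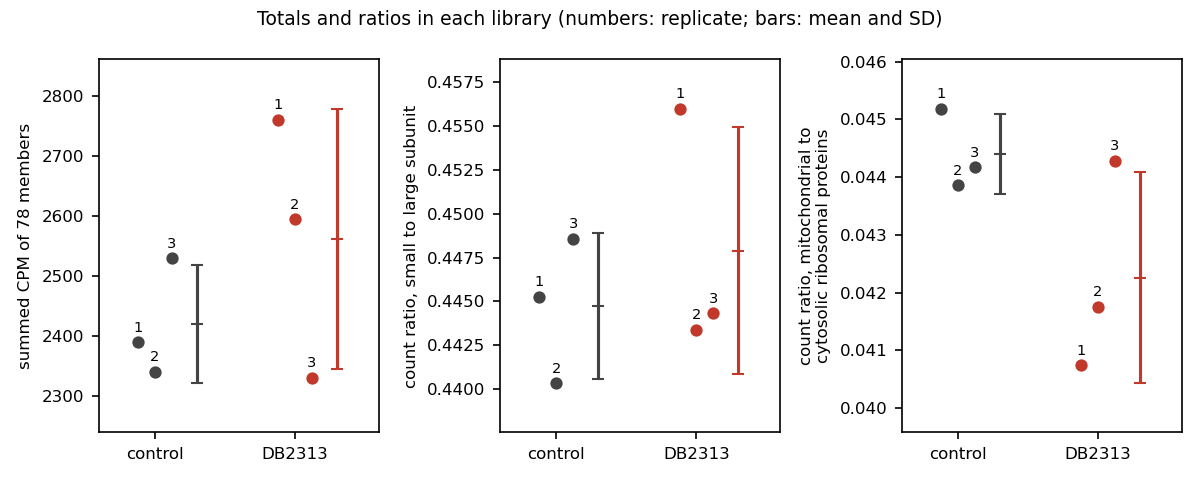
Each point is 1 library, numbered by replicate, for the summed CPM of the 78 genes (left), the small-to-large subunit count ratio (middle) and the mitochondrial-to-cytosolic ribosomal protein count ratio (right), with bars for the mean and SD of 3 libraries and y axes that do not start at 0. The groups overlap in all 3 panels, and DB2313 replicate 3 has the lowest summed level, 2331 CPM, while DB2313 replicate 1 has the highest, 2761 CPM.

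Gene by gene, 2 of the 77 tested genes passed an adjusted p of 0.05 upwards with DB2313 and 0 downwards (edgeR's quasi-likelihood test, adjusted by Benjamini-Hochberg over all 14174 genes tested). This was 2.6% of the members tested, compared with 10.6% of all genes (4.66% higher and 5.94% lower) and 11.5% of the 6252 genes within the same range of expression. At an unadjusted p under 0.05 there were 8 higher genes and 1 lower gene, against 23.3% of all genes (10.9% higher and 12.5% lower). DESeq2, which called 11.6% of all genes, and limma-voom, which called 10.6%, also placed 2 members higher and 0 lower. Both of the genes called higher, Mrpl22 and Mrpl2, encode large-subunit proteins with bacterial counterparts.

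Mrpl22 (ENSMUSG00000020514, chromosome 11, 58171661 to 58179565, plus strand, GRCm38) encodes a protein that lines the tunnel through which the new chain leaves the ribosome. It had 168, 187 and 170 counts in control and 242, 336 and 226 with DB2313. This corresponded to 10.3, 11.7 and 10.6 CPM in control and 14.7, 16.8 and 13.6 CPM with DB2313. Every DB2313 library lay above every control library. The log2 fold change was 0.47 ± 0.14 (SE, 95% interval 0.18 to 0.76, edgeR adjusted p 0.0398). A pseudogene copy, Gm6997, shared 621 bp with Mrpl22 at 95% identity or more and had 0 to 6 counts per library.

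Mrpl2 (ENSMUSG00000002767, chromosome 17, 46646229 to 46650139, plus strand) encodes a protein next to the site where peptide bonds are formed. It had 608, 618 and 549 counts in control and 870, 906 and 697 with DB2313, or 37.3, 38.7 and 34.4 CPM and 52.7, 45.4 and 41.8 CPM. The groups did not overlap, and DB2313 replicate 3 was again the lowest of its group. The log2 fold change was 0.34 ± 0.10 (SE, 95% interval 0.13 to 0.55, edgeR adjusted p 0.0402). Klc4, which begins 207 bp away on the other strand, had a log2 fold change of 0.20 with an adjusted p of 0.146.

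Both calls lay close to the threshold. With an offset for gene length, the log2 fold change was 0.38 for Mrpl22 (edgeR adjusted p 0.0743) and 0.26 for Mrpl2 (0.0592), and 0 members passed, against 12.9% of all genes. When each library was omitted in turn, the log2 fold change ranged from 0.38 to 0.54 for Mrpl22 and from 0.25 to 0.41 for Mrpl2. The number of higher members was 0 without control replicate 1, 2 or 3 or DB2313 replicate 2, in fits that called 5.84%, 5.46%, 5.89% and 5.07% of all genes (2.49%, 2.47%, 2.64% and 2.25% higher). It was 8 without DB2313 replicate 3. In that fit, which called 16.6% of all genes (7.55% higher), Mrpl14, Mrpl33, Mrpl40, Mrps12, Mrps17 and Mrps21 passed besides Mrpl2 and Mrpl22. Without DB2313 replicate 1, Mrpl22 alone passed, against 11.8% of all genes (5.42% higher).

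**Figure D3:**
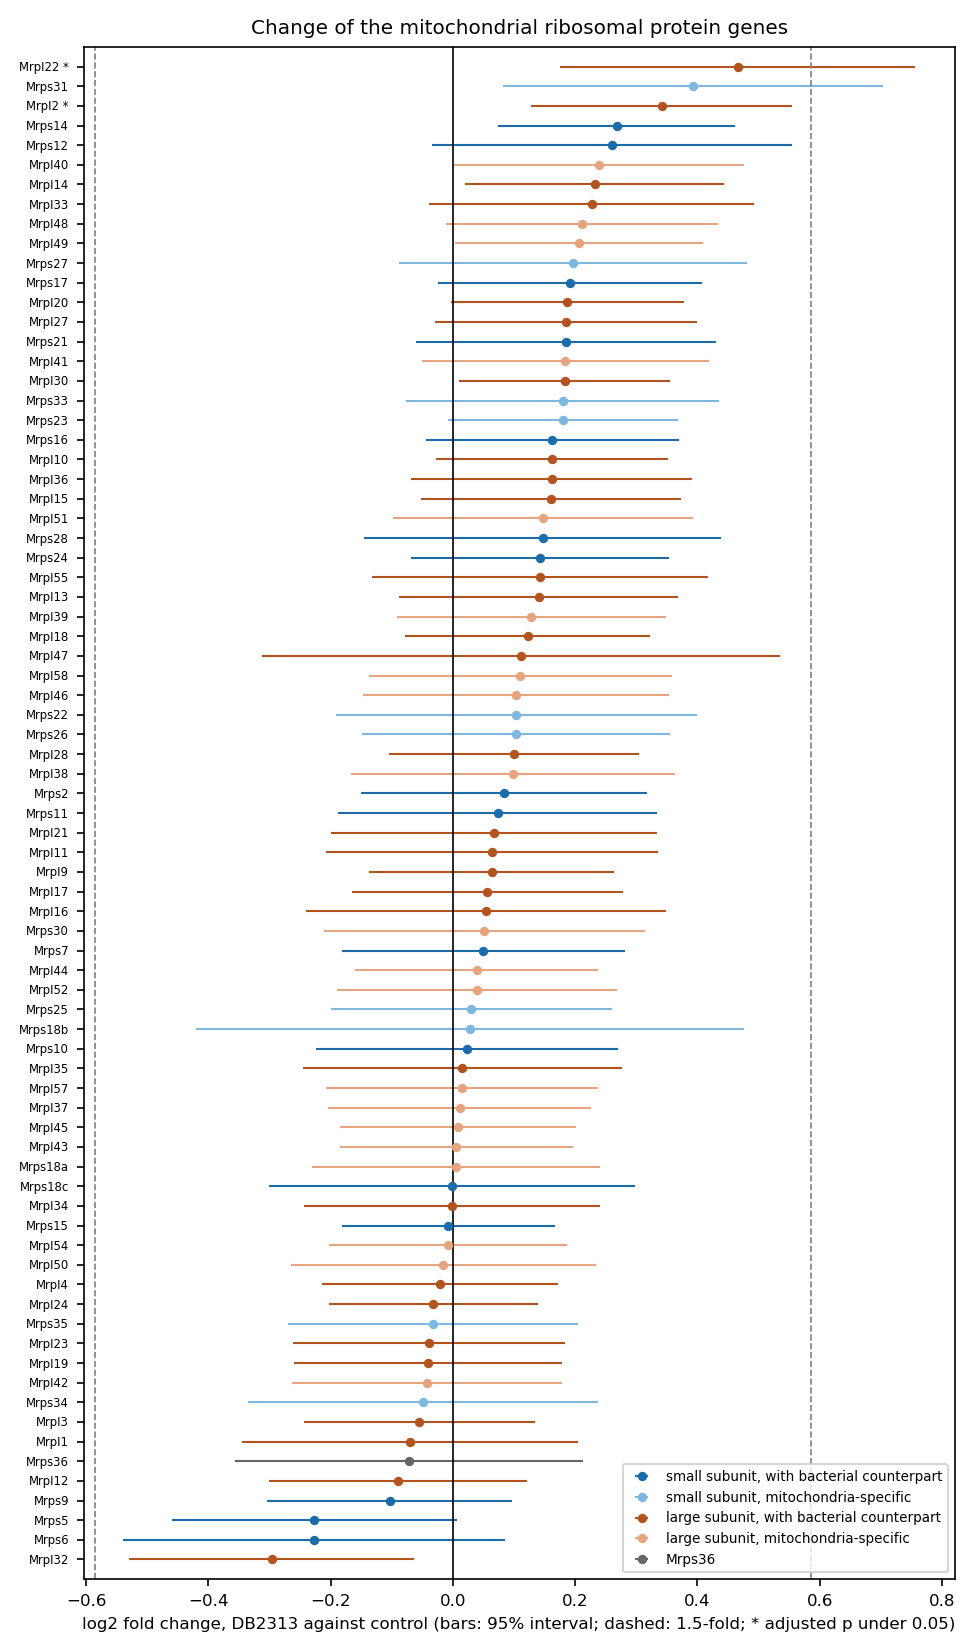
Log2 fold change of each of the 77 tested genes (x axis, DB2313 against control) with its 95% interval, ordered by value and coloured by class. An asterisk marks an adjusted p under 0.05, and dashed lines mark a 1.5-fold change in either direction. The intervals of all but Mrpl22 and Mrps31 lie between the dashed lines.

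The other genes at the top of the order did not pass the test. Mrps31, a small-subunit protein specific to mitochondria, was at 9.02, 11.3 and 9.64 CPM in control and 12.1, 12.6 and 14.6 CPM with DB2313, with no overlap (log2 fold change 0.39 ± 0.15 SE, edgeR adjusted p 0.107). Mrps14 was at 33.3, 30.8 and 33.4 CPM and at 41.7, 37.6 and 38.2 CPM, also without overlap (0.27 ± 0.09, adjusted p 0.0758). Mrps12, whose bacterial counterpart takes part in decoding, was at 30.1, 22.9 and 25.6 CPM and at 37.7, 31.2 and 25.3 CPM, with overlap (0.26 ± 0.14, adjusted p 0.282). Its log2 fold change was 0.11 without DB2313 replicate 1 and 0.39 without DB2313 replicate 3.

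At the bottom of the order, none passed either. Mrpl32, a large-subunit protein that is cleaved on import before it is built into the ribosome, was at 20.4, 22.9 and 23.0 CPM in control and 18.1, 18.8 and 17.0 CPM with DB2313. The groups did not overlap, and the log2 fold change of -0.30 ± 0.11 (SE) gave an adjusted p of 0.104 in edgeR. Mrps6 was at 12.5, 15.3 and 12.3 CPM and at 12.2, 12.1 and 9.84 CPM (-0.23 ± 0.15, adjusted p 0.391), with 19.9% of its exon bases shared with other genes. Mrps5 was at 24.9, 29.5 and 24.1 CPM and at 23.4, 21.3 and 22.4 CPM (-0.23 ± 0.11, adjusted p 0.229). These groups did not overlap, by narrow margins. Mrps9 (-0.10 ± 0.09, adjusted p 0.570) and Mrpl12 (-0.09 ± 0.10, adjusted p 0.653), which forms the stalk that recruits translation factors, overlapped between the groups. Without control replicate 2 the log2 fold change was -0.11 for Mrps6 and -0.13 for Mrps5, and without DB2313 replicate 3 it was -0.13 for Mrps6, -0.04 for Mrps9 and -0.04 for Mrpl12.

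In all, 10 genes were higher and 3 were lower without overlap between the groups, 16.9% of the tested members compared with 27.4% of all genes (12.9% higher and 14.5% lower). The 10 higher genes were Mrpl2, Mrpl20, Mrpl22, Mrpl27, Mrpl30, Mrpl49, Mrps14, Mrps23, Mrps28 and Mrps31. The median log2 fold change of the 77 genes was 0.07, with an interquartile range of -6e-04 to 0.16. Of the 77, 57 (74%) lay above 0, against 50.1% of all genes and 50.8% of those within the same range of expression. The number above 0 was 44 without DB2313 replicate 1 and 65 without DB2313 replicate 3. For all tested genes the median was 8e-04. The interquartile range of the 77 was 0.16 wide against 0.32 for all genes and 0.26 for genes within the same range of expression, and 92.2% lay within 0.25 of 0 on the log2 scale against 66.7% and 75.8%. It was narrower still for cytosolic ribosomal protein genes (0.09) and mitochondrial translation factors (0.08), and these differences in spread were not tested. The 95% interval excluded a change of more than 1.5-fold for 75 of the 77 genes (97.4%), compared with 62.4% of all genes and 83.6% of those within the same range of expression. The exceptions were Mrpl22 and Mrps31, whose intervals reached 0.76 and 0.70. For all 77 the interval excluded a change of more than 2-fold.

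The structural classes had close medians. The median log2 fold change was 0.09 over the 26 small-subunit genes, of which 19 lay above 0, and 0.07 over the 50 tested large-subunit genes, of which 38 did. It was 0.08 for small-subunit proteins with a bacterial counterpart, 0.10 for those specific to mitochondria, 0.08 for large-subunit proteins with a bacterial counterpart and 0.05 for those specific to mitochondria. The 2 called genes were 6.67% of the 30 large-subunit genes with a bacterial counterpart, against 10.6% of all genes. Mrps36, the gene whose product is not a ribosomal protein, had a log2 fold change of -0.07 ± 0.13 (SE).

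**Figure D4:**
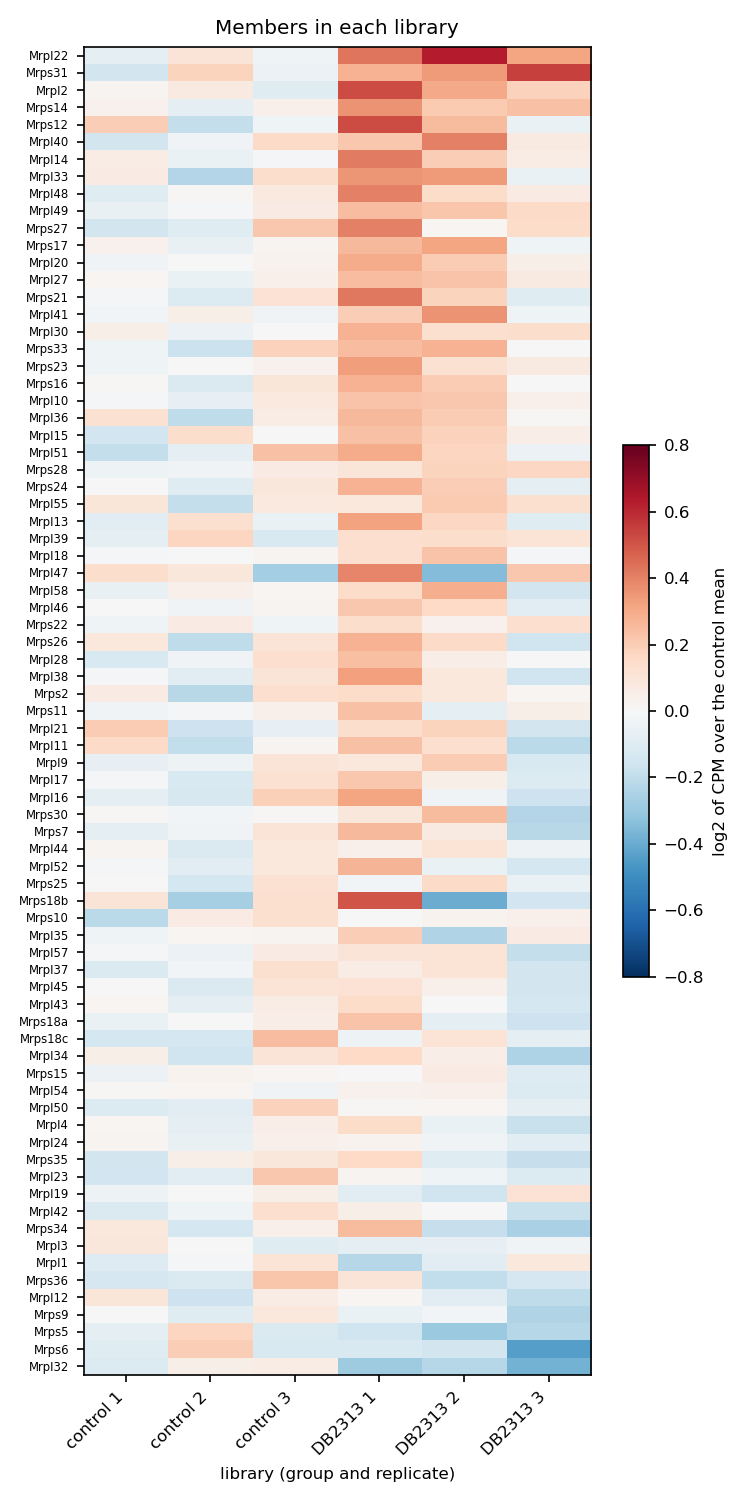
Level of each of the 77 tested genes (vertical axis, ordered by log2 fold change) in each of the 6 libraries (horizontal axis), as log2 of its CPM over the mean of the control libraries, red for higher and blue for lower. The column of DB2313 replicate 1 is mostly red, with a median of 0.22 over the genes, and that of DB2313 replicate 3 is mostly pale or blue, with a median of -0.05.

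The libraries of the DB2313 group differed in a way that ran through the whole set. The median log2 deviation of the 77 genes from the control mean was -0.02, -0.05 and 0.06 in the control libraries and 0.22, 0.11 and -0.05 in DB2313 replicates 1 to 3. In the map of levels by library, DB2313 replicate 1 was the highest of its group for 49 of the 77 genes and DB2313 replicate 3 the lowest for 60. Control replicate 3 was the highest of its group for 52. Cytosolic ribosomal protein genes took 5.29%, 5.27% and 5.66% of all counts in the control libraries and 6.72%, 6.28% and 5.38% in the DB2313 libraries, in the same order of libraries within the DB2313 group. The median log2 fold change of the 77 genes was 0.03 without DB2313 replicate 1 and 0.15 without DB2313 replicate 3. What set these libraries apart was not tested. Across the 77 genes, Spearman's rho of the log2 fold change with gene length was -0.22 and that with the control level was 0.17.

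Mrpl53 (chromosome 6, 83109040 to 83109939, plus strand), a large-subunit protein specific to mitochondria, was the member that could not be tested. It had a count of 0 in all 6 libraries, which allows up to 3 counts in each. Gm42688, a locus annotated as protein-coding, spans Mrpl53 on the same strand. Same-strand overlap covered 88.0% of the exon bases of Mrpl53, and the antisense gene Ccdc142os did not add to this share. Gm42688 itself had 11 to 38 counts per library, and whether its overlap led to the count of 0 was not tested. Exons of 33 of the 78 genes overlapped another gene on either strand, by more than 50% in Mrpl53, Mrps34 and Mrps25. On the same strand the overlap of these 3 was 88.0%, 37.0% and 0.0%. Reads of overlapped genes could have been lost or credited to another locus, depending on the strandedness of the counting, which was not given. A stretch of at least 100 bp at 95% identity was shared with an annotated pseudogene by 27 genes, but not every such stretch was a copy of the gene. That of Mrpl20 was at most 131 bp long, and such stretches of it occurred in 332 other genes.

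Among the genes that share a starting region with a member, 18 were tested and 1 was called by edgeR (5.56%), against 10.6% of all genes. Ppp1r10, which encodes a regulatory subunit of protein phosphatase 1 and begins 45 bp from Mrps18b, had 1270, 1480 and 1436 counts in control and 1035, 1220 and 1053 with DB2313. It fell by 0.48 on the log2 scale (edgeR adjusted p 0.00169). Mrps18b was at 10.3, 7.95 and 10.5 CPM in control and 13.5, 7.26 and 8.58 CPM with DB2313 (0.03 ± 0.21, adjusted p 0.959). This pair of neighbours was picked out with its values in view.

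The other genes of mitochondrial translation were examined by role. The 5 subunits of the ribosome that carry no Mrp symbol (Dap3, Ptcd3, Chchd1, Aurkaip1 and Gadd45gip1) had log2 fold changes of 0.01 to 0.12, and 0 were called by edgeR, also at an unadjusted p under 0.05. Of 31 genes for ribosome assembly and rRNA modification, 0 rose and 1 fell (3.23%), against 10.6% of all genes called, with a median of 0.05. The gene that fell was Fastkd2, whose product binds the large ribosomal RNA, from 14.2 ± 0.14 to 10.5 ± 0.34 CPM (SD, n = 3 each; log2 fold change -0.44 ± 0.13 SE, edgeR adjusted p 0.0400). This call was lost in 8 of 17 alternatives, with an adjusted p of up to 0.155, while the log2 fold change stayed between -0.46 and -0.41. These were scaling by library totals, no filter, the replicate block with and without the length offset, and the omission of any control library or of DB2313 replicate 2.

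Of 19 tested translation factors, 0 rose and 1 fell (5.26%), against 10.6% of all genes called, with a median of -0.03. The gene was Gatc, a subunit of the amidotransferase that converts glutamyl-tRNA into glutaminyl-tRNA in mitochondria, from 16.8 ± 2.24 to 11.9 ± 1.12 CPM (-0.51 ± 0.14 SE, edgeR adjusted p 0.0285). Of 17 mitochondrial aminoacyl-tRNA synthetases, 0 rose and 1 fell (5.88%), again against 10.6% of all genes, with a median of -0.03. The gene was Ears2, which charges tRNA with glutamate and so supplies that amidotransferase. It had 329, 356 and 351 counts in control and 237, 311 and 186 with DB2313, and fell from 21.5 ± 1.13 to 13.7 ± 2.28 CPM (-0.65 ± 0.13 SE, edgeR adjusted p 0.00519). Its call held in all 17 alternatives, whereas that of Gatc was lost in 3, without control replicate 1, control replicate 3 or DB2313 replicate 2. Of 13 tested regulators of mitochondrial genes, 0 were called by edgeR. At an unadjusted p under 0.05 there were 3 (1 higher and 2 lower), against 23.3% of all genes. Gabpa (0.14 ± 0.10, adjusted p 0.466), Nrf1 (-0.17 ± 0.09, adjusted p 0.284) and Yy1 (0.08 ± 0.07, adjusted p 0.561) were among the 13 but not among these 3. They encode the GABP subunit and the factors named above.

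**Figure D5:**
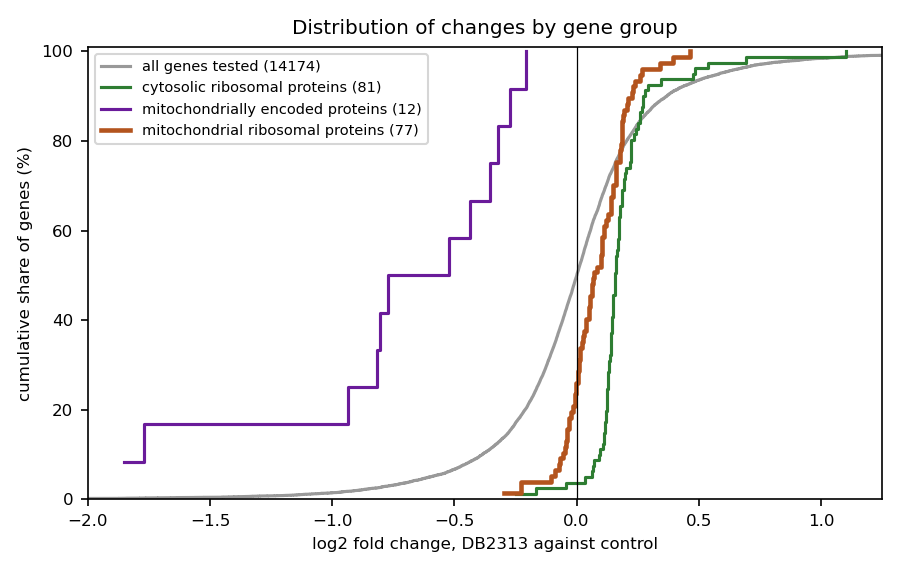
Cumulative share of genes (y axis, %) by log2 fold change (x axis, DB2313 against control) for the 77 mitochondrial ribosomal protein genes, the 81 tested cytosolic ribosomal protein genes, the 12 tested mitochondrially encoded protein genes and all 14174 genes tested, some of which lie outside the x axis. The curve of the mitochondrial ribosomal protein genes is steep around its median of 0.07, that of the cytosolic ones around 0.16, and the mitochondrially encoded genes lie wholly below 0.

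The ribosomal RNAs and the messengers that the ribosome reads were examined beside its proteins. The small ribosomal RNA, mt-Rnr1, was at 787, 909 and 808 CPM in control and 1398, 1229 and 1187 CPM with DB2313, with no overlap (0.61 ± 0.08 SE, edgeR adjusted p 1.6e-04). The large ribosomal RNA, mt-Rnr2, was at 1476 ± 121 and 1431 ± 121 CPM (SD, n = 3 each; -0.04 ± 0.08 SE, adjusted p 0.794). The ratio of mt-Rnr1 to mt-Rnr2 counts was 0.569, 0.564 and 0.565 in the control libraries and 0.892, 0.918 and 0.857 in the DB2313 libraries, whereas the protein genes of the small and the large subunit kept ratios that overlapped between the groups.

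Of the 12 tested protein genes of the mitochondrial genome, 0 rose and 8 fell (66.7%), against 10.6% of all genes called. Their median log2 fold change was -0.65, and their share of all counts was 1.83% to 2.15% in control and 1.19% to 1.28% with DB2313. Among those with the smallest p were mt-Nd1 (-1.85), mt-Nd2 (-1.77), mt-Nd4 (-0.82), mt-Cytb (-0.77) and mt-Co1 (-0.52, all log2 fold changes). Of the 81 tested cytosolic ribosomal protein genes, 4 rose and 0 fell (4.94%), against 10.6% of all genes called. Their median was 0.16, as the plot of cumulative shares shows beside the mitochondrial set, and 78 lay above 0, against 50.1% of all genes. The 4 were Rps27a, Rps21, Rpl39 and Rpl27, named after their values were seen, and such genes have many pseudogene copies that can take up reads.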

How the data were processed

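RNA-seq of 6 libraries, 3 per group, was analysed. The deposited table gave unnormalised whole-number counts of reads for each gene and library, together with gene lengths. The submitters' processing notes list CASAVA 1.8, HISAT2 2.0.5 and featureCounts 1.5.0-p3, whereas the methods of the study name LifeScope for alignment and counting. Strandedness and the treatment of reads with several matches were not given in the sources used here. Coordinates equal those of GENCODE M21 (GRCm38) for 73 of the 78 genes. Groups followed the treatment label. Column names were matched to it as control for BMDC and DB2313 for SPI1.

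Counts were tested with edgeR 4.0.16 in R 4.3.3 (TMM scaling, filterByExpr, quasi-likelihood test with group as the only term, Benjamini-Hochberg adjustment over 14174 genes), and every adjusted p of a single gene comes from it. CPM and RPKM used the scaled library sizes. Single sums and ratios were compared on the log2 scale by exact two-sided permutation. The scripts were tested on simulated data. Alternatives were DESeq2 1.42.0, limma-voom (limma 3.58.1), scaling by DESeq2 size factors or by library totals, an unfiltered table, a minimum mean count of 10, a fit to protein-coding genes, robust edgeR, an offset for gene length (lowess, span 0.3), a block for the replicate number, the block with the offset, and fits without each library. Levels per principal transcript length were added after the data were seen. Pseudogene matches were searched with blastn 2.17.0 (95% identity over at least 100 bp). Because the reads carried no molecular identifiers, limits from counts cover counting error only. Of the translation factor list, 20 of 21 symbols were in the table.

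The members and all gene lists were chosen with earlier results of these data known. Genes were named by rule as members with an adjusted p under 0.05, the 5 members at each end of the log2 fold change and of the control level, members that failed the filter, the called genes of the other lists of mitochondrial translation (at most 5 each), and the mitochondrial rRNAs. Other names in the text were chosen after the values were seen. The biological coefficient of variation was 9.66%. No batch was given in the labels.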

Additional observations from a re-analysis of the deposited data

How the results depend on the processing

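Mrpl2 and Mrpl22 were the 2 members called higher, and they remained so with DESeq2, limma-voom, DESeq2 size factors, library totals, an unfiltered table, a minimum mean count of 10, a fit to protein-coding genes and robust edgeR. The number of higher members was 0 with the gene length offset, 0 with the replicate block and 0 with both, in fits that called 12.9%, 7.98% and 10.4% of all genes, and 0 to 8 when 1 library was left out, in fits that called 5.07% to 16.6%. No member was called lower in any of the 17 alternatives. Same-numbered libraries did not deviate together (correlations of 0.00409, -0.0242 and -0.108, and no library correlated best with its own number), so the replicate numbers were not taken as pairs. With the replicate block, the edgeR adjusted p was 0.0590 for Mrpl2 and 0.0660 for Mrpl22, and 502 genes were higher and 629 lower overall against 661 and 842. The median log2 fold change of the members stayed above 0, from 0.03 to 0.15. With each library omitted in turn, the log2 difference of the summed level ran from 0.02 to 0.15, that of the mitochondrial to cytosolic ratio from -0.11 to -0.05, and that of the small to large subunit ratio from -0.0028 (without DB2313 replicate 1) to 0.0174. Of the named genes with a log2 fold change near 0, none of them called, some turned sign. Mrpl34 (-8e-04) became 0.003155 with DESeq2, 0.003212 with its size factors, 0.02067 with library totals, 0.009271 with no filter and 0.001284 in the fit to protein-coding genes, and was between -0.086 and 0.107 over the omissions. Mrpl43 became -0.06763 with the length offset and -0.06776 with the block as well (-0.067 to 0.072 over the omissions), and Mrpl54 became 0.01473 with library totals and 0.001767 with no filter (-0.033 to 0.040). The omissions also moved the log2 fold changes of Mrps6 (-0.28 to -0.11), Mrps5 (-0.28 to -0.13), Mrps12 (0.11 to 0.39), Mrps9 (-0.14 to -0.04) and Mrpl12 (-0.16 to -0.04) by over 1.5 times without a change of sign. The same held for Mrps21 (0.05 to 0.31) and Mrpl14 (0.13 to 0.31). The omissions gave -0.048 to 0.306 for Mrpl47, -0.073 to 0.092 for Mrps10, -0.062 to 0.176 for Mrps30 and -0.11 to 0.030 for mt-Rnr2. The cause of these changes was not tested. The ratio of the highest to the lowest control level was 33.7 with deposited lengths and 41.1 with principal transcripts. With 109 to 1413 counts per library for the tested members, and 3 libraries per group, the median SE of a log2 fold change was 0.108.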
